A study of Caenorhabditis elegans with 8 samples.

Results

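The genes described here are the spermatogenesis genes of Caenorhabditis elegans that carry the names spe (spermatogenesis defective), fer (fertilization defective) or ssp (sperm-specific family, class P), together with the sperm protein phosphatases gsp-3 and gsp-4. They were chosen by symbol alone: every coding sequence (CDS) whose sequence name maps to a symbol of the form spe, fer or ssp with a number, plus gsp-3 (W09C3.6) and gsp-4 (T03F1.5), gave 50 of the 20505 CDS in the table. Ribosome profiling sequences the fragments of mRNA that translating ribosomes shield from nuclease, and the value per CDS is a ribosome occupancy in RPKM, which scales reads to feature length and to library size. Whole worms of the wild-type strain N2 were used, with no mutant or drug, all grown from hatched L1 larvae on plates with NA22 bacteria. There were 4 libraries of young adults, each a different combination of monosome isolation (sucrose gradient or gel filtration column) and library preparation (the in-house protocol of the submitters or that of a commercial kit). Another 4 libraries came from worms of larval stage 4 (L4), each with a different excised gel window: 25 to 30, 28 to 30, 28 to 35 or 26 to 34 nt. The L4 libraries are named here by their column numbers, 5 to 8, because no label ties a column to a window. The young-adult titles share 1 number whose meaning is not stated, and no label says that the L4 libraries came from separate cultures, so p-values measure only the spread between these libraries, which may be technical.

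In a hermaphrodite the germ line first makes sperm, late in larval life, and then switches to oocytes for the rest of adulthood. Spermatocytes store major sperm protein (MSP) in fibrous bodies that form together with membranous organelles. The nucleus of the spermatid is largely silent and ribosomes are discarded as the spermatid buds off, so the proteins of sperm are made beforehand. A spermatid is then activated into a crawling spermatozoon, during which membranous organelles fuse with the cell surface. The spe and fer genes were found by mutations that make sperm, but not oocytes, fail.

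The 50 members included 34 spe genes, fer-1, 13 ssp genes and both gsp genes. On the annotation used for names, 20 of them (40.0%) lay on chromosome I and 17 (34.0%) on chromosome IV, against 14.2% and 16.1% of all 20051 CDS with a matched name. Chromosome X held 0 of 50 members and 2742 of the 20051 matched CDS (13.7%). The median recovered feature length was 937 nt for members and 1004 nt for all CDS, and the ssp genes were short, from 281 to 367 nt. In that annotation 9 members overlap another protein-coding gene, namely spe-5, spe-9, spe-15, spe-26, spe-27, spe-29, spe-36, spe-38 and spe-49. The sources used here do not say whether reads were counted by strand, so the values of these members are uncertain. The same holds for gsp-3, gsp-4 and the ssp genes, which have close relatives among which reads could have been split.

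Recovered library totals ran from 18018744 to 38132794 reads in young adults and were 26078844, 21814060, 4999364 and 3684924 in L4 libraries 5, 6, 7 and 8. L4 library 8 went against its label. The 6 vitellogenins (yolk proteins of the adult intestine) summed to between 17410 and 18200 RPKM in young adults, to between 40.5 and 47.6 in L4 libraries 5 to 7, and to 16984 in library 8. The 14 oocyte markers summed to between 4857 and 5129 RPKM in young adults, to between 106 and 122 in L4 libraries 5 to 7, and to 5531 in library 8. The 10 collagens that mark the L4 epidermis summed to between 12499 and 13261 RPKM in L4 libraries 5 to 7, to at most 40.7 in young adults and to 71.3 in library 8. Of these collagens 9 rose in L4, and dpy-17 did not mark L4 here, with 3.01 to 3.93 RPKM in young adults and 2.02 to 4.72 in libraries 5 to 7. No gene of these 3 lists was at 0 in every young-adult library or in all of L4 libraries 5 to 7. The fit as labelled keeps library 8 among the L4 libraries, and stage results are therefore given with it and without it.

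The members took a larger share of ribosome footprints in L4 libraries 5 to 7 than in young adults. They held 0.0352%, 0.0333%, 0.0368% and 0.0345% of CDS reads in the in-house gradient, in-house column, kit gradient and kit column libraries of young adults. The share was 0.0801%, 0.0838% and 0.0802% in L4 libraries 5, 6 and 7, and 0.0309% in library 8 (exact 95% binomial interval 0.0291% to 0.0327%, which covers counting error only). Libraries 5 to 7 lay above every young-adult library and library 8 lay below all of them. Without the most read member of each library, spe-15 in young adults and in library 8 and spe-18 in libraries 5 to 7, the shares were between 0.0277% and 0.0323% in young adults, between 0.0594% and 0.0708% in libraries 5 to 7, and 0.0273% in library 8. In the stacked shares of reads by role, the genes of spermatocyte organelles made the thickest band in libraries 5 to 7. They also did so in the in-house column and kit column libraries of young adults. The ssp genes supplied between 27.5% and 35.2% of the members' reads in young adults, between 17.6% and 23.9% in libraries 5 to 7 and 33.3% in library 8. Worms were profiled whole, so fewer cells of a type and less RNA or fewer ribosomes per cell cannot be told apart, nor can mRNA abundance and translation, since no matched mRNA library was used here.

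**Figure D1:**
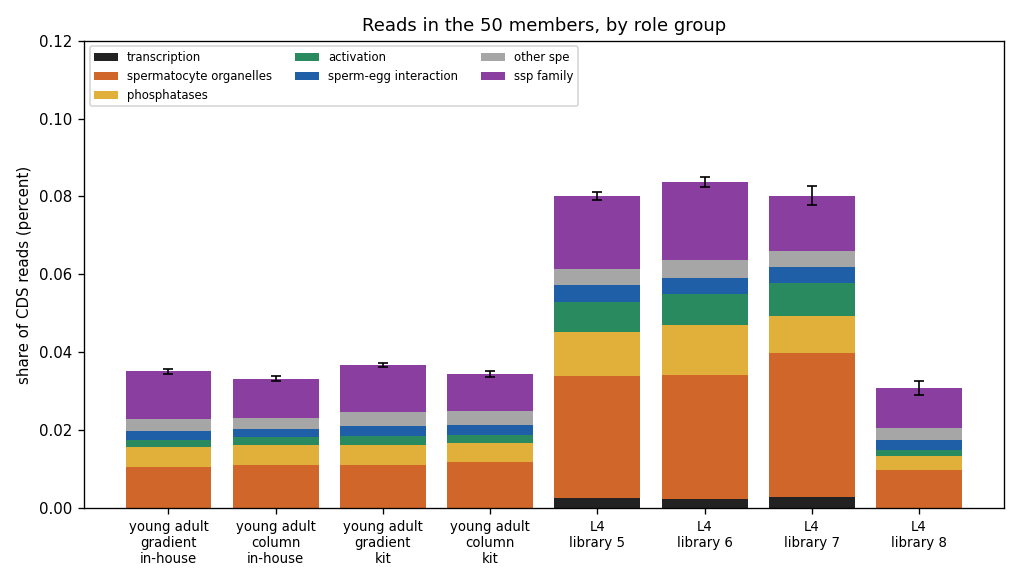
Share of CDS reads (percent, vertical axis) held by the 50 members in each of the 8 libraries, stacked by role group, with bars for the exact 95% binomial interval of the total. The stacks of L4 libraries 5 to 7 reach between 0.0801% and 0.0838%, while those of the young adults and of L4 library 8 lie between 0.0309% and 0.0368%.

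For the stage comparison log2(RPKM + 1) was fitted with limma, and a CDS was called at a Benjamini-Hochberg adjusted p under 0.05 over all CDS tested. Differences are L4 minus young adult on that scale, which understates the fold change of CDS with low values. Of the 50 members 48 reached the minimum of 1 RPKM in 2 libraries, and 12 of these did not reach it in 2 young-adult libraries and passed only with L4 libraries counted. With all libraries as labelled, 18 members (37.5% of those tested) were higher in L4 against 27.6% of all 13592 CDS tested, and 1 (2.08%) was lower against 11.1%. The median difference was 0.45 for tested members and 0.26 for all CDS tested. These calls hung on the full set of libraries: leaving out any 1 library other than library 8 left between 0 and 3 members higher and between 0 and 1 lower. In the labels stage coincides with experiment and with the choice of gel window, so stage and experiment cannot be told apart.

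Without library 8, 29 members (60.4%) rose in L4 against 46.6% of 13494 CDS, and 5 (10.4%) fell against 22.7%. The median was 0.65 for tested members and 0.34 for all CDS. A call with a difference over 1 was made for 19 members upwards (39.6%) against 24.7% of CDS and for 1 downwards (ssp-37) against 10.3%, and one over 2 was made for 5 members (10.4%) against 8.54% of CDS. Members that passed the minimum only with L4 libraries counted are among these, which favours a rise. No count over 1 or 2 was made with those members left out. Among the 36 members that reached the minimum in 2 young-adult libraries, a filter that does not look at L4, 18 rose (50%) and 5 fell (13.9%), while 39.1% and 26.4% of the 11569 CDS passing the same filter did. Centring every library on its median, which takes out most of the shift of all CDS, left 22 members higher (45.8%, against 30.9% of CDS) and 11 lower (22.9%, against 36.6%). The 22 were all among the 29, and spe-8, spe-15, spe-26, spe-55, spe-58, ssp-34 and ssp-35 were no longer called after centring. The 22 include the 11 members that rose and had passed the minimum only with L4 libraries counted, which favours a rise. Counts after centring were not made under the young-adult filter. Libraries 5 to 7 all lay above every young-adult library for 28 of the 50 members, against 35.4% of the 19649 CDS with any read, and all lay below for 5, against 17.7%. With library 8 kept, no overlap was seen upwards for 8 members (16.6% of CDS) and downwards for 2 (6.39%). The sets are unlike here, since the 19649 CDS include those below the minimum, which 48 of the 50 members reached.

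**Figure D2:**
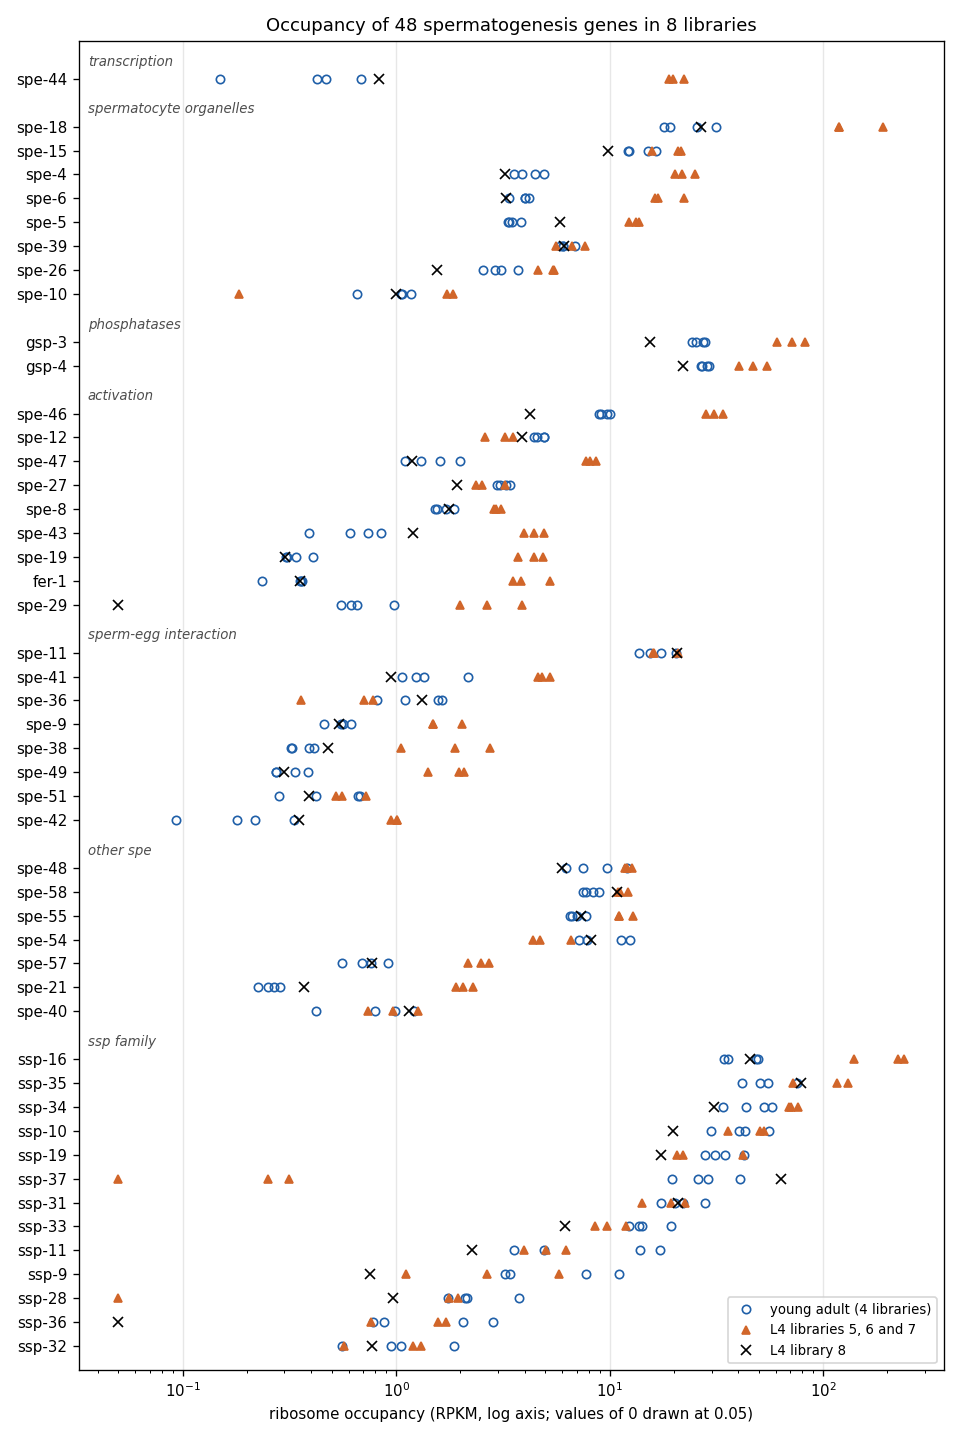
Ribosome occupancy (RPKM, log axis) of 48 of the 50 members in each library, grouped by role, with open circles for the 4 young-adult libraries, triangles for L4 libraries 5 to 7 and crosses for L4 library 8. For 26 of those drawn the 3 triangles all lie above the 4 circles, for 5 they all lie below, and the cross is nearer to the circles for 36.

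The transcription factor spe-44, a SAND-domain protein needed to express many sperm genes, showed the largest rise of any member without library 8. It is among the 12 members that passed the minimum only with L4 libraries counted. Its occupancy was 0.425, 0.150, 0.684 and 0.469 RPKM in the in-house gradient, in-house column, kit gradient and kit column libraries of young adults, an order kept for all young-adult values that follow. It was 19.8, 19 and 22.3 RPKM in L4 libraries 5, 6 and 7, and 0.833 in library 8. The stages were far apart in libraries 5 to 7, while library 8, with 4 reads of spe-44, was close to the young adults. The mean was 0.432 ± 0.219 (SD, n = 4) in young adults and 20.4 ± 1.70 (SD, n = 3) in libraries 5 to 7, which is 47.1-fold higher, and the fitted difference was 3.91 (SE 0.15, adjusted p = 6.08e-09). With library 8 it was 3.02 (SE 0.76, adjusted p = 0.0235).

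Of the 9 genes that build the organelles of the spermatocyte, all tested and all at the minimum in young adults too, 7 rose without library 8 and 2 were not called. Their median difference was 1.64, beside 0.34 for all CDS, of which 46.6% rose. As labelled 5 rose (27.6% of CDS), and after median centring without library 8, 5 rose (30.9% of CDS) and spe-39 was lower. Occupancy was highest for spe-18, which is needed to assemble fibrous bodies, with 25.6, 18.1, 31.5 and 19.2 RPKM in young adults, 118, 118 and 190 in L4 libraries 5 to 7, and 26.6 in library 8. Library 8 lay within the young-adult range, and the other L4 libraries lay well above it. The difference was 2.54 (SE 0.23, adjusted p = 4.41e-06) without library 8 and 1.96 (adjusted p = 0.0282) with it.

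The presenilin relative spe-4, a membrane protein of these organelles, had 3.56, 4.45, 3.90 and 4.90 RPKM in young adults, 21.8, 25.2 and 20.3 in libraries 5 to 7, and 3.24 in library 8. Its difference was 2.17 (SE 0.14, adjusted p = 3.68e-07), and 1.56 (adjusted p = 0.0498) with library 8, which lay below every young-adult value. The casein kinase relative spe-6 was 4.72-fold higher and spe-5, a subunit of the vacuolar proton pump, was 3.73-fold higher in libraries 5 to 7, and both rises were called with and without library 8.

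Smaller differences or no call were found for spe-10, spe-15, spe-26 and spe-39. The myosin VI gene spe-15, which sorts material out of the budding spermatid, had 12.2, 15.1, 12.3 and 16.5 RPKM in young adults, 21.6, 20.8 and 15.8 in libraries 5 to 7, and 9.79 in library 8. The groups overlapped, since library 7 lay below the kit column library. The difference was 0.44 (SE 0.16, adjusted p = 0.0325) without library 8, was no longer called after median or quantile scaling, and was 0.21 (adjusted p = 0.506) with library 8. For spe-39, a vesicle trafficking protein, young adults had 6.05, 5.87, 6.04 and 6.92 RPKM, libraries 5 to 7 had 6.65, 7.69 and 5.64, and library 8 had 6.12. No difference was called (0.08, SE 0.14, adjusted p = 0.626 without library 8, and 0.05 with it), but median centring turned it to -0.32, which was called. The kelch-domain gene spe-26 rose by 0.60 (adjusted p = 0.00315) without library 8, a call lost under median and quantile scaling, and its difference with library 8 was 0.29 (adjusted p = 0.463). The palmitoyltransferase relative spe-10 was not called and was uneven among the L4 libraries, with 1.84, 1.73 and 0.185 RPKM in libraries 5, 6 and 7, where library 7 had 1 read.

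The sperm phosphatases gsp-3 and gsp-4, close relatives of protein phosphatase 1, both rose without library 8 and neither was called with it. Occupancy of gsp-3 was 27.5, 28.0, 25.5 and 24.3 RPKM in young adults, 71.7, 82.3 and 61.1 in libraries 5 to 7, and 15.5 in library 8. For gsp-4 the values were 26.9, 27.1, 28.5 and 29.2 RPKM in young adults, 47.1, 54.3 and 40.2 in libraries 5 to 7, and 22.1 in library 8. Both genes were near-equal in young adults, both stood higher in libraries 5 to 7 with no overlap, and for both library 8 lay below every young-adult library. The difference was 1.40 (SE 0.14, adjusted p = 7.71e-06) for gsp-3 and 0.73 (SE 0.13, adjusted p = 0.000733) for gsp-4 without library 8. With it they were 0.87 (adjusted p = 0.157) and 0.46 (adjusted p = 0.169).

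Of the 9 genes of spermatid activation, 5 reached the minimum in young adults, and of these 3 rose and 1 fell without library 8, with a median of 0.58. Under the same filter 39.1% of CDS rose and 26.4% fell. The other 4, fer-1, spe-19, spe-29 and spe-43, were tested only because of their level in L4 libraries 5 to 7, and they rose, which the filter favours. The membrane protein gene spe-46 had 8.88, 9.14, 9.69 and 10.0 RPKM in young adults, 30.9, 33.9 and 28.4 in libraries 5 to 7, and 4.22 in library 8. The L4 libraries 5 to 7 stood clear of the young adults and library 8 lay below them. The difference was 1.62 (SE 0.12, adjusted p = 1.19e-06) without library 8, and 0.96 (adjusted p = 0.191) with it. The MSP-domain gene spe-47 had 1.1, 1.3, 1.61 and 1.99 RPKM in young adults, 7.78, 8.62 and 8.05 in libraries 5 to 7, and 1.19 in library 8, for a difference of 1.88 (adjusted p = 1.47e-06). With library 8 the difference was 1.37 (adjusted p = 0.047). Mutations in spe-46 and spe-47 let spermatids activate too early, as do certain alleles of spe-4 and spe-6.

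The ferlin gene fer-1, whose product is needed for membranous organelles to fuse with the cell surface, was low in young adults at 0.356, 0.358, 0.363 and 0.235 RPKM. It stood at 3.86, 3.54 and 5.25 RPKM in libraries 5 to 7 and at 0.354 in library 8. The 3 L4 libraries lay clear of the others, 12.8-fold above the young-adult mean, and library 8 fell within the young-adult range. The difference was 1.96 (adjusted p = 6.14e-07) without library 8 and 1.48 (adjusted p = 0.0323) with it.

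The spe-8 pathway, through which a spermatid of a hermaphrodite responds to an activating signal, did not move as a block. Without library 8, spe-19 rose by 1.99 (12.8-fold), spe-43 by 1.73 and spe-29 by 1.16. Reads of spe-29 were few, 4, 5, 5 and 2 in young adults and 14, 17 and 2 in libraries 5 to 7. The tyrosine kinase gene spe-8 rose by 0.58 (adjusted p = 0.00135) without library 8, a call lost under median and quantile scaling. With library 8 the differences were 1.48 (adjusted p = 0.0345) for spe-19 and 1.40 (adjusted p = 0.0196) for spe-43, while 0.68 for spe-29 (adjusted p = 0.236) and 0.45 for spe-8 (adjusted p = 0.0756) were not called. The pathway gene spe-12, which encodes a membrane protein, went the other way. It had 4.57, 4.90, 4.92 and 4.41 RPKM in young adults, 3.54, 3.22 and 2.60 in libraries 5 to 7, and 3.89 in library 8. All 4 L4 libraries lay below every young-adult library. The difference was -0.47 (SE 0.13, adjusted p = 0.00859), or -0.41 (adjusted p = 0.0712) with library 8. For spe-27 young adults had 2.98, 3.05, 3.28 and 3.40 RPKM, libraries 5 to 7 had 2.53, 3.24 and 2.36, and library 8 had 1.92 on 3 reads. The groups overlapped and no difference was called (-0.18, SE 0.13, adjusted p = 0.249 without library 8, and -0.26, adjusted p = 0.229 with it). After median centring, -0.58 for spe-27 was called as lower.

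Of 9 genes that act when sperm meets egg, 3 reached the minimum in young adults. Of these spe-41 rose and spe-36 fell without library 8, and spe-11 was not called. Under the same filter 39.1% of CDS rose and 26.4% fell. Another 4 of the 9 genes, spe-9, spe-38, spe-42 and spe-49, were tested only because of their level in L4 libraries 5 to 7, which favours a rise. Most of the 9 were low in every library. The TRPC channel gene spe-41 had 1.07, 1.35, 1.23 and 2.16 RPKM in young adults, 4.61, 4.83 and 5.25 in libraries 5 to 7, and 0.942 in library 8. The difference was 1.28 (SE 0.16, adjusted p = 4.98e-05) without library 8, with no overlap, and 0.88 (adjusted p = 0.0918) with it. The gene spe-9, for a sperm surface protein with EGF repeats, had 0.458, 0.565, 0.612 and 0.551 RPKM in young adults, 1.49, 2.03 and 1.49 in libraries 5 to 7, and 0.539 in library 8. Its difference was 0.78 (adjusted p = 0.000215), lost under quantile scaling, and 0.58 (adjusted p = 0.0619) with library 8.

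The tetraspan gene spe-38 and the DC-STAMP relatives spe-42 and spe-49 rose by 1.05, 0.72 and 1.09 without library 8, of which spe-42 was not called under quantile scaling. With library 8 they were 0.81, 0.58 and 0.81, with adjusted p of 0.0475, 0.0351 and 0.0465. The immunoglobulin-like gene spe-51 reached 1 RPKM in no library and was not tested. It ran from 0.282 to 0.719 RPKM.

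In this group spe-36, for a secreted EGF-motif protein, was lower in L4, with 0.811, 1.65, 1.10 and 1.57 RPKM in young adults, 0.711, 0.358 and 0.781 in libraries 5 to 7, and 1.32 in library 8. Libraries 5 to 7 lay just below the young adults and library 8 within them. The difference was -0.49 (SE 0.17, adjusted p = 0.0232), or -0.36 (adjusted p = 0.202) with library 8. The paternal factor spe-11, a sperm-supplied protein that the embryo needs, had 17.5, 13.7, 20.4 and 15.4 RPKM in young adults, 20.8, 16.1 and 16 in libraries 5 to 7, and 20.8 in library 8. The groups overlapped throughout, with a difference of 0.07 (SE 0.16, adjusted p = 0.705) without library 8 and 0.13 (adjusted p = 0.553) with it.

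Among the 7 other spe genes, 4 reached the minimum in young adults, of which 2 rose and 1 fell without library 8, beside 39.1% and 26.4% of CDS under the same filter. The other 3, spe-21, spe-40 and spe-57, passed the minimum only with L4 libraries counted. Among them spe-40 also reached 1 RPKM in the kit column library of young adults, and it was not called with or without library 8. Of these, spe-21, a palmitoyltransferase relative like spe-10, rose 8.10-fold (1.29 on the log2 scale, adjusted p = 2.29e-06) and spe-57 rose 3.37-fold (1.00, adjusted p = 4.6e-05) in libraries 5 to 7. With library 8 the differences were 1.00 (adjusted p = 0.0287) and 0.76 (adjusted p = 0.0431). The gene spe-55 had 7.03, 7.75, 6.53 and 6.66 RPKM in young adults, 11.1, 12.9 and 11 in libraries 5 to 7, and 7.35 in library 8, for a difference of 0.66 (adjusted p = 0.00102). For spe-58 young adults had 8.94, 7.51, 8.39 and 7.71 RPKM and the L4 libraries, library 8 last, had 11.1, 10.9, 12.2 and 10.9, for a difference of 0.44 (adjusted p = 0.00936). With library 8 the difference was 0.51 (adjusted p = 0.0591) for spe-55 and 0.43 (adjusted p = 0.0402) for spe-58. Both calls without library 8 were lost under median and quantile scaling, although in neither gene did libraries 5 to 7 overlap the young adults.

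Occupancy of spe-48 was 7.53, 6.25, 12.0 and 9.69 RPKM in young adults, 11.8, 12.8 and 12.1 in libraries 5 to 7, and 5.99 in library 8. The kit gradient library lay among the L4 values, and no difference was called (0.46, SE 0.19, adjusted p = 0.0569 without library 8, and 0.23 with it). Against most of its group, spe-54 had 7.87, 7.21, 11.3 and 12.5 RPKM in young adults, 4.38, 6.58 and 4.71 in libraries 5 to 7, and 8.21 in library 8. Libraries 5 to 7 lay below every young-adult library, with a difference of -0.77 (SE 0.21, adjusted p = 0.00752), and -0.62 (adjusted p = 0.0747) with library 8.

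The ssp genes, which encode small proteins related to the MSP domain, were spread to both sides. Without library 8, 3 of 13 rose, 2 fell and 8 were not called, with a median of -0.23. Of the 11569 CDS passing the young-adult filter, 39.1% rose and 26.4% fell. All 13 ssp genes reached the minimum in young adults. Of the spe, fer and gsp members 23 did, of which 15 rose and 3 fell, with a median of 0.60. As labelled, 2 ssp genes rose and 1 fell, beside 27.6% and 11.1% of CDS. Median centring without library 8 left 1 ssp gene higher, ssp-16, and 6 lower, beside 30.9% and 36.6% of CDS. The highest mean over all libraries was that of ssp-16, with 48.4, 34.5, 49.4 and 35.7 RPKM in young adults, 223, 240 and 139 in libraries 5 to 7, and 45.5 in library 8. Libraries 5 to 7 were clear of the rest, 4.78-fold above the young-adult mean, and library 8 was within the young-adult range. The difference was 2.21 (SE 0.21, adjusted p = 7.62e-06) without library 8 and 1.69 (adjusted p = 0.0305) with it.

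Young adults had 75.2, 55.1, 50.8 and 41.8 RPKM of ssp-35, libraries 5 to 7 had 115, 130 and 72.2, and library 8 had 78.6. Library 7 lay below the in-house gradient library, so the groups overlapped. The difference was 0.90 (adjusted p = 0.0065) without library 8, not called after median centring, and 0.81 (adjusted p = 0.0353) with it. For ssp-34 young adults had 43.4, 33.9, 57.9 and 53 RPKM, libraries 5 to 7 had 70.8, 69.3 and 76.1, and library 8 had 30.8. Its difference was 0.63 (adjusted p = 0.00987) without library 8, with no overlap, a call lost under median and quantile scaling. With library 8 it was 0.33 (adjusted p = 0.392). Occupancy of ssp-10 was 29.8, 43.3, 55.6 and 40.3 RPKM in young adults, 50.4, 52.9 and 35.8 in libraries 5 to 7, and 19.7 in library 8. The groups overlapped and no difference was called (0.14, SE 0.21, adjusted p = 0.564 without library 8, and -0.15 with it).

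The opposite pattern was strongest in ssp-37. It had 40.7, 28.7, 25.8 and 19.7 RPKM in young adults, 0.313 and 0.250 RPKM in libraries 5 and 6, 0 in library 7, and 63.6 in library 8. The reads behind these values were 485, 269, 361 and 130 in young adults, 3, 2 and 0 in libraries 5 to 7, and 86 in library 8, the highest occupancy of all libraries. A count of 0 in library 7 allows up to 2.01 RPKM (exact 95% Poisson bound). Pooled reads, scaled to the pooled read totals of the libraries, were 115-fold higher in young adults than in libraries 5 to 7 (exact 95% interval 49.3 to 356, counting error only). The fitted difference was -4.61 (SE 0.22, adjusted p = 3.08e-08) without library 8 and -3.16 (adjusted p = 0.0697) with it. A milder fall was called for ssp-33, which had 13.7, 12.4, 19.3 and 14.2 RPKM in young adults, 9.70, 12.0 and 8.52 in libraries 5 to 7, and 6.17 in library 8. All 4 L4 libraries lay below the young adults, and the difference was -0.52 (SE 0.17, adjusted p = 0.0233) without library 8 and -0.67 (adjusted p = 0.0446) with it.

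**Figure D3:**
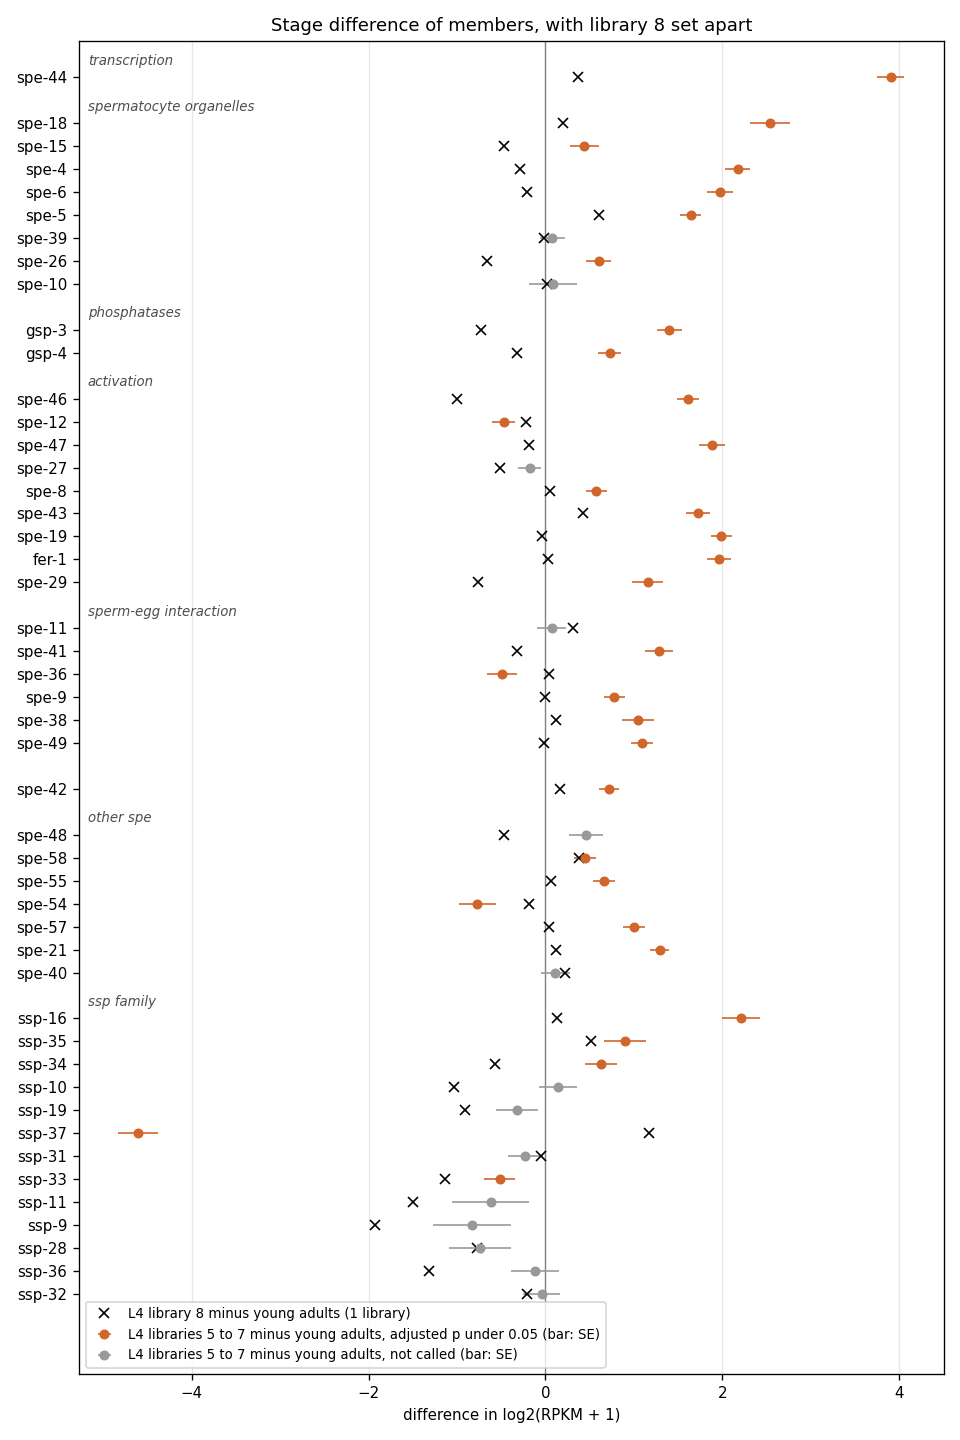
Difference in log2(RPKM + 1) between L4 libraries 5 to 7 and young adults for 47 of the 48 tested members (points with SE bars), and for L4 library 8 alone minus young adults (crosses), by role group. The differences run from -4.61 (ssp-37) to 3.91 (spe-44), and the crosses of the 28 drawn members that rose have a median of 0.011.

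Library 8 was nearer to the young-adult mean than to that of libraries 5 to 7 for 38 of the 50 members, beside 67.4% of the 19649 CDS with any read. It lay within the young-adult range for 18 members, below it for 21 and above it for 11. Of the 29 that rose without it, 27 were nearer to young adults (all but spe-58 and ssp-35), where 79.8% of the 6293 CDS that rose were. Of these 29 it lay below the lowest young-adult library for 11, within the range for 10 and above for 8. Several counts in this shallow library are very small, and spe-29 and ssp-36 had no read in it.

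Libraries 5, 6 and 7 also differed among themselves. Library 7, the shallowest of these, was more than 1.5-fold below both others for 8 members (16%), against 11.8% of CDS tested, and above both for 2, spe-18 and ssp-19, against 7.16%. The 8 included 6 ssp genes: ssp-9, ssp-16, ssp-28, ssp-32, ssp-35 and ssp-37. In library 7 ssp-9 had 2 reads, ssp-32 had 1, and ssp-28 and ssp-37 had 0, so counting error is wide for these. Values of ssp-19 were 22.1, 20.6 and 41.9 RPKM in libraries 5, 6 and 7, so its L4 range reached into that of young adults, from 28.1 to 42.4. Gel windows differ between these libraries, and depth does too, and their part in this was not tested.

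Other sperm genes were called in both directions. Of 31 tested genes on a list of other sperm genes, 15 rose and 3 fell without library 8, with a median of 0.50, beside 46.6% and 22.7% of all CDS tested and their median of 0.34. As labelled 4 rose and 2 fell, beside 27.6% and 11.1%. After median centring without library 8, 6 were higher and 7 lower, with a median of 0.10, beside 30.9% and 36.6% of CDS and their median of -0.06. The named examples from these lists were picked after their values were seen. The RNA-binding regulators cpb-1 and cpb-2 rose by 3.05 and 2.11 without library 8, while sss-1 fell by 3.82. With it cpb-2 was not called (1.5, adjusted p = 0.0572), and the differences of cpb-1 and sss-1 were 2.24 and -3.02, both called. Young adults had 34.2, 30.6, 25.3 and 20.7 RPKM of sss-1, libraries 5 to 7 had 0.488, 0.742 and 2.08, and library 8 had 17.3. Of 7 tested genes of germ-line sex determination, 3 rose and 2 fell without library 8, beside 46.6% and 22.7% of all CDS tested. Among them fog-3 and fog-1, both needed for germ cells to become sperm, rose by 3.70 and 1.57. Neither fog-1 nor cpb-1 reached the minimum in 2 young-adult libraries, so both were tested because of their level in L4, which favours a rise. The tra-1 gene rose by 1.03, and fog-2 and fem-2 fell by 1.17 and 1.31 without library 8. With it the 5 were called in the same directions, at 2.86, 1.31, 0.91, -0.92 and -0.99, beside 27.6% of CDS higher and 11.1% lower. Of 3 markers of the male tail and seminal fluid only swm-1 could be tested, and it rose by 1.09 without library 8 and by 0.88 with it. These 3 summed to between 25.2 and 38.4 RPKM in young adults, to between 51.5 and 82.0 in libraries 5 to 7 and to 37.8 in library 8, and the part of males in the members' values was not tested.

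Few genes of major sperm protein itself rose. Of 25 tested MSP genes 3 rose and 4 fell without library 8, with a median of -0.26, beside 46.6% and 22.7% of CDS. As labelled 0 rose, against 27.6% of CDS, and 3 fell, a share near the 11.1% of CDS. After median centring without library 8, 13 were lower and 0 higher, beside 36.6% and 30.9% of CDS, and the median was -0.66. The 28 MSP genes listed held between 0.0498% and 0.0726% of CDS reads in young adults, between 0.0477% and 0.0633% in L4 libraries 5 to 7 and 0.0305% in library 8. The ranges of young adults and libraries 5 to 7 overlapped. MSP genes are near-identical copies, so counts and medians over single MSP genes are uncertain and no single gene is named.

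The 4 young-adult libraries allow isolation and preparation to be compared with each other, with 1 residual degree of freedom per CDS. On the column against the gradient, 11 of 36 tested members (30.6%) were lower, against 19.2% of 11569 CDS, and 1 (2.78%) was higher, against 19.8%. The median difference was -0.02 for members and 0.02 for all CDS. Of the 11 lower members 8 were ssp genes: ssp-11, ssp-16, ssp-19, ssp-31, ssp-32, ssp-34, ssp-35 and ssp-37, with differences from -0.48 (ssp-32) to -0.24 (ssp-34). All 13 ssp genes were tested, and 10 were lower on the column with both preparations and 1 was higher with both. Of the other 37 members 7 were lower and 17 higher with both. These 37 include the 14 members not tested in young adults, and the same counts were not made over all CDS. Of 25 tested MSP genes 21 were called lower on the column and 1 higher, beside 19.2% and 19.8% of CDS, and their median was -0.40.

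The largest isolation difference among members was that of spe-18, which fell from 25.6 to 18.1 RPKM in-house and from 31.5 to 19.2 with the kit. Its difference was -0.58 (SE 0.07, adjusted p = 0.00429). The other lower members were spe-11 (-0.36) and spe-48 (-0.26). The single higher member was spe-15, the long myosin gene, at 0.34 (SE 0.07, adjusted p = 0.015). Across the 36 tested members the difference correlated with feature length (Pearson r = 0.59, Spearman rho = 0.57 on log length), and across all 11569 CDS r was 0.36 and rho 0.37. Among the 23 tested members outside the ssp family r was 0.50 and rho 0.57. These are descriptions across genes that share the same 4 libraries.

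**Figure D4:**
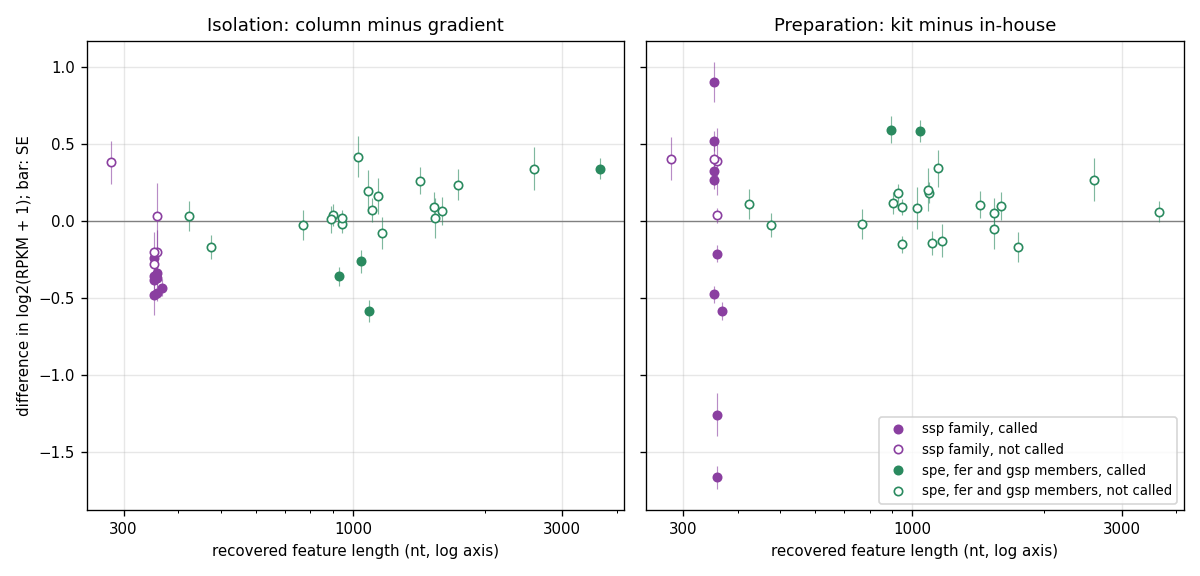
Difference in log2(RPKM + 1) of 35 of the 36 members tested in young adults, column minus gradient (left) and kit minus in-house (right), against recovered feature length (nt, log axis), with filled points for called members and SE bars. On the left most short ssp genes lie below 0 while longer members lie on both sides, and on the right the ssp genes spread from -1.66 (ssp-11) to 0.90 (ssp-36).

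Between preparations, 6 members (16.7%) were higher with the kit, against 25.9% of CDS, and 5 (13.9%) were lower, against 10.0%. The median was 0.10 for members and 0.10 for all CDS. The lower members were all ssp genes. The values of ssp-11 fell from 17.3 to 4.91 RPKM on the gradient and from 13.8 to 3.57 on the column, a difference of -1.66 (SE 0.07, adjusted p = 0.000552). Those of ssp-9 fell from 11.1 to 3.22 and from 7.78 to 3.41 RPKM, a difference of -1.26 (SE 0.14, adjusted p = 0.0032). Also lower were ssp-37 (-0.58), ssp-35 (-0.47) and ssp-19 (-0.21). In L4 libraries 5 to 7 ssp-11 had 3.96, 6.27 and 5.03 RPKM and ssp-9 had 2.68, 5.76 and 1.12, so for both genes the position of L4 relative to young adults differs between the preparations.

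Higher with the kit were ssp-36 (0.90, adjusted p = 0.00625), spe-54 (0.59, adjusted p = 0.00689), spe-48 (0.59, adjusted p = 0.00423), ssp-34 (0.52, adjusted p = 0.00453), ssp-33 (0.32) and ssp-31 (0.27). The last pair were not called under median or quantile scaling. Short relatives of 1 family differed in opposite directions between the preparations. Calls for both factors were lost in fits that took their spread from more libraries or left out the other factor: 0 of 48, 48 and 36 members were called for either factor with all libraries, with L4 libraries 5 to 7 added, and without the other factor. At an unadjusted p under 0.05, the fit with L4 libraries 5 to 7 had 0 members higher and 1 lower on the column, and 5 higher and 2 lower with the kit.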

How the data were processed

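The deposited values are RPKM per CDS, which the authors scaled to feature length and library reads, as the steps between values show. Per the submitters' processing notes bcl2fastq 1.8.4, Bowtie2 2.2.4 and STAR 2.4 were used, with no role stated. The genome build, the annotation and the handling of multi-mapped reads are not given in the sources used here. Whole reads, lengths and totals were recovered from the RPKM steps (Python 3.11.15, pandas 2.3.3 and numpy 2.4.6). Reads were whole within 0.0001 for each of the 19649 CDS with a value, 856 of the 20505 were 0 in every library, and 99.6% to 99.9% of each total lay in the table. Symbols, chromosomes and overlaps come from a RefSeq gene table, which matched 20051 sequence names and left 454. The samples were grouped by stage, isolation and preparation from the labels.

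Tests used limma 3.58.1 (lmFit, eBayes with an abundance trend) in R 4.3.3, two-sided, on log2(RPKM + 1), for CDS that reached an RPKM of 1 in 2 or more libraries of the fit, with Benjamini-Hochberg adjustment over all tested CDS. The procedure was tested on simulated data. Isolation and preparation were fitted together. An exact permutation test of 3 against 4 libraries cannot go below p = 0.0571, so none was run. Named members were the 4 with the highest mean RPKM in each role group, members called against their group, and members differing by over 0.5 with isolation or preparation; other names were picked with their values in view. Counts cover all 50 members, of which 2 are not reported here by name or drawn singly. The members, lists, role groups and tests were chosen with earlier results of these data known, and counts under the young-adult filter were added after seeing the data. Alternatives were pseudocounts of 0.1 and 5, other filters, median and quantile scaling, no trend, other model terms, voom on recovered reads and leaving out each library. Figures were drawn with matplotlib 3.10.9.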

Additional observations from a re-analysis of the deposited data

Results flagged for a closer look

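Among 56 groups of 4 values, L4 library 8 stood apart from the other libraries of its group in 7 by Dixon's criterion, where chance would mark about 1 group in 20. It was low for spe-41 (0.942 RPKM), spe-44 (0.833 RPKM), spe-47 (1.19 RPKM), spe-48 (5.99 RPKM) and ssp-34 (30.8 RPKM), and high for ssp-37 (63.6 RPKM). The members' share of CDS reads was also low, at 0.0309%. No other library was marked, among L4 or young adults. Library 8 carries the vitellogenin, oocyte and collagen levels given above, which go against its label.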

How the results depend on the processing

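The fits without library 8 under other settings were chosen after seeing the data. As labelled, members higher and lower in L4 numbered 18 and 1. They became 8 higher with a minimum of 10 RPKM, 9 and 6 under quantile normalization, 9 and 7 under median centring, 0 and 0 with isolation and preparation terms added (18 and 3 at an unadjusted p under 0.05), 0 lower with no filter (3 at an unadjusted p under 0.05) and 2 lower with voom. Leaving out 1 library gave 0 to 29 higher and 0 to 5 lower. Without library 8 the 29 and 5 became 15 and 3 with a minimum of 10 RPKM, with 13 lower under quantile normalization and 11 under median centring, and leaving out 1 further library gave 27 to 30 and 4 to 6. The median of 0.65 became 0.74 and 0.34 with pseudocounts of 0.1 and 5, 0.25 under quantile normalization, 0.25 under median centring and 0.79 with voom. For isolation, voom gave 5 higher, and for preparation 11 higher. Both had 0 members in either direction in fits on all libraries, with L4 libraries 5 to 7, without the other factor, and when 1 young-adult library was left out (0 to 0). At an unadjusted p under 0.05 the fit on all libraries had 0 higher and 0 lower members for isolation and 0 and 1 for preparation, and the fit without the other factor 2 and 2 for isolation and 4 and 4 for preparation. Without the most read member the shares were 0.0307%, 0.0277%, 0.0323% and 0.0284% in young adults and 0.0672%, 0.0708%, 0.0594% and 0.0273% in L4 libraries 5 to 8. Differences not called as labelled turned sign for spe-11 (-0.094 under quantile normalization, -0.20 under median centring), spe-15 (-0.015 and -0.12), spe-48 (-0.078 and -0.11) and ssp-10 (0.029 with voom, and -0.32 to 0.14 on leaving out 1 library, the highest without library 8). The minimum of 10 RPKM tested 24 members, and the cause of the other changes was not tested. No paired analysis was possible because the stages share no replicate numbers that tie a young-adult library to an L4 library. The depth of libraries 7 and 8 limits members of low occupancy.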
